A study of Mus musculus with 6 samples.

Results

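The nuclear-encoded subunits of the respiratory chain and of the ATP synthase were taken from the deposited gene table as the protein-coding rows whose symbol begins with Nduf and a subunit letter and number, is Sdha to Sdhd, or begins with Uqcr, Cox4 to Cox8 or Atp5. The rule used names and no measured value, and it gave 88 of 56748 genes: 37 of complex I, 4 of complex II, 8 of complex III, 21 of complex IV and 18 of the ATP synthase (complex V). Ndufa4 and Ndufa4l2 were placed with complex IV, where their proteins sit despite their symbols. The rule left out Ndufab1, the acyl carrier subunit of complex I, and Atpif1, the inhibitor protein of the ATP synthase.

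The counts came from RNA sequencing of 6 libraries of cultured mouse adipose-derived stem cells (ADSC), stromal cells grown out of fat tissue. In 3 libraries the cells are labelled as overexpressing the integrins VLA-4 (Itga4 with Itgb1) and LFA-1 (Itgal with Itgb2) after transduction with both, and 3 are labelled mock. The labels describe the mock cells in several ways, as carrying an empty vector, as wild type and as unmodified. No label gives the strain, sex or age of the mice, the vector's promoter, or whether a group's libraries are separate cultures, and each p-value reflects only how these libraries spread, possibly for technical reasons. All cells grew in serum-containing DMEM. Library totals were 15723888 to 18185832 counts in the libraries labelled overexpressing and 16904703 to 18381083 in those labelled mock.

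The labels were checked on the transduced genes and on cell type markers. Itga4 had 2.2, 2.8 and 2.5 CPM (read counts scaled to TMM-adjusted library sizes) in the libraries labelled overexpressing, against 8.0, 5.0 and 6.5 CPM in those labelled mock, and was lower (log2 fold change -1.38, edgeR adjusted p = 1.28e-05). Itgb1 was lower too, at -0.32 (edgeR adjusted p = 9.16e-05), and Itgal had 1, 4 and 2 counts in the libraries labelled overexpressing and 0, 3 and 4 in those labelled mock. Itgb2 had 4, 2 and 9 counts in the libraries labelled overexpressing and 18, 14 and 6 in those labelled mock. Itgal and Itgb2 had too few counts to be tested. Itga4 and Itgb1 therefore go against the labels, and every direction below is one between libraries as labelled. The marker counts are to be read against all genes tested, of which 23.0% were lower and 22.3% higher. Of 9 stromal markers, 6 were lower and 0 higher, with log2 fold changes from -1.60 to 0.43 and 7 of them below 0. Their summed level was 9769 to 11668 CPM in the libraries labelled overexpressing and 21648 to 23337 CPM in those labelled mock. Of 6 tested Schwann cell markers, 5 were lower, with a summed level of 4.68 to 5.11 CPM in the libraries labelled overexpressing and 28.5 to 34.5 CPM in those labelled mock, and Cdh19 had no count in the libraries labelled overexpressing. Of 6 macrophage markers 3 were tested and 1 was lower, with a summed level of 14.0 to 16.8 CPM in the libraries labelled overexpressing and 16.4 to 21.1 CPM in those labelled mock, and the defining marker Adgre1 had 0 counts in the libraries labelled overexpressing and 5 in those labelled mock. Of 4 tested endothelial markers 1 was lower and 1 higher, with a summed level of 21 to 22.5 CPM in the libraries labelled overexpressing and 13.8 to 17.9 CPM in those labelled mock. Of 3 tested striated muscle markers 1 was lower, with a summed level of 72.8 to 88.7 CPM in the libraries labelled overexpressing and 123 to 126 CPM in those labelled mock. None of 4 adipocyte markers passed the filter on low counts, and Lep and Cfd had 0 counts in both groups. The part of these marker shifts in the results below was not tested, and fewer cells of a type cannot be told apart from less RNA per cell in bulk samples.

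The respiratory chain passes electrons from NADH (complex I) and succinate (complex II) through ubiquinone to complex III, and through cytochrome c to oxygen at complex IV. Complexes I, III and IV pump protons across the inner mitochondrial membrane, and the ATP synthase uses their return to make ATP. A few subunits of complexes I, III and IV and of the ATP synthase are encoded in mitochondrial DNA, and the nuclear genes described here encode most of the rest. Most nuclear subunits are small proteins made from short messenger RNAs.

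Subunit messages were lower in the libraries labelled overexpressing, by a small amount and across all 5 complexes. Of the 88 genes, 81 passed the filter on low counts and were tested, with 54 lower and 0 higher at an edgeR adjusted p under 0.05. Their median log2 fold change was -0.27, a 1.2-fold lower level, and 80 of the 81 values were below 0. Over all genes tested, 23.0% were lower and 22.3% higher, and the median value was 0.01. In 45 of the 81 subunits the 3 libraries labelled overexpressing all lay below the 3 labelled mock, against 26.5% of all genes tested. The 7 untested genes had few or no counts: Cox6a2 and Cox7a1 stayed at or below 1.11 CPM in each library, Cox8b had 4 counts in 1 library labelled overexpressing and 1 count in 1 labelled mock, Cox7b2 had 1 count in all, and Cox8c, Ndufb11b and a second Atp5o row had 0.

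Counts were spread over the complexes in different shares. The ATP synthase had 15 of 17 tested subunits lower, complex IV 11 of 16, complex I 22 of 36, complex II 2 of 4 and complex III 4 of 8. Median log2 fold changes were -0.27 for the ATP synthase, -0.28 for complex IV, -0.29 for complex I, -0.19 for complex II and -0.21 for complex III. No difference between complexes was tested.

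**Figure D1:**
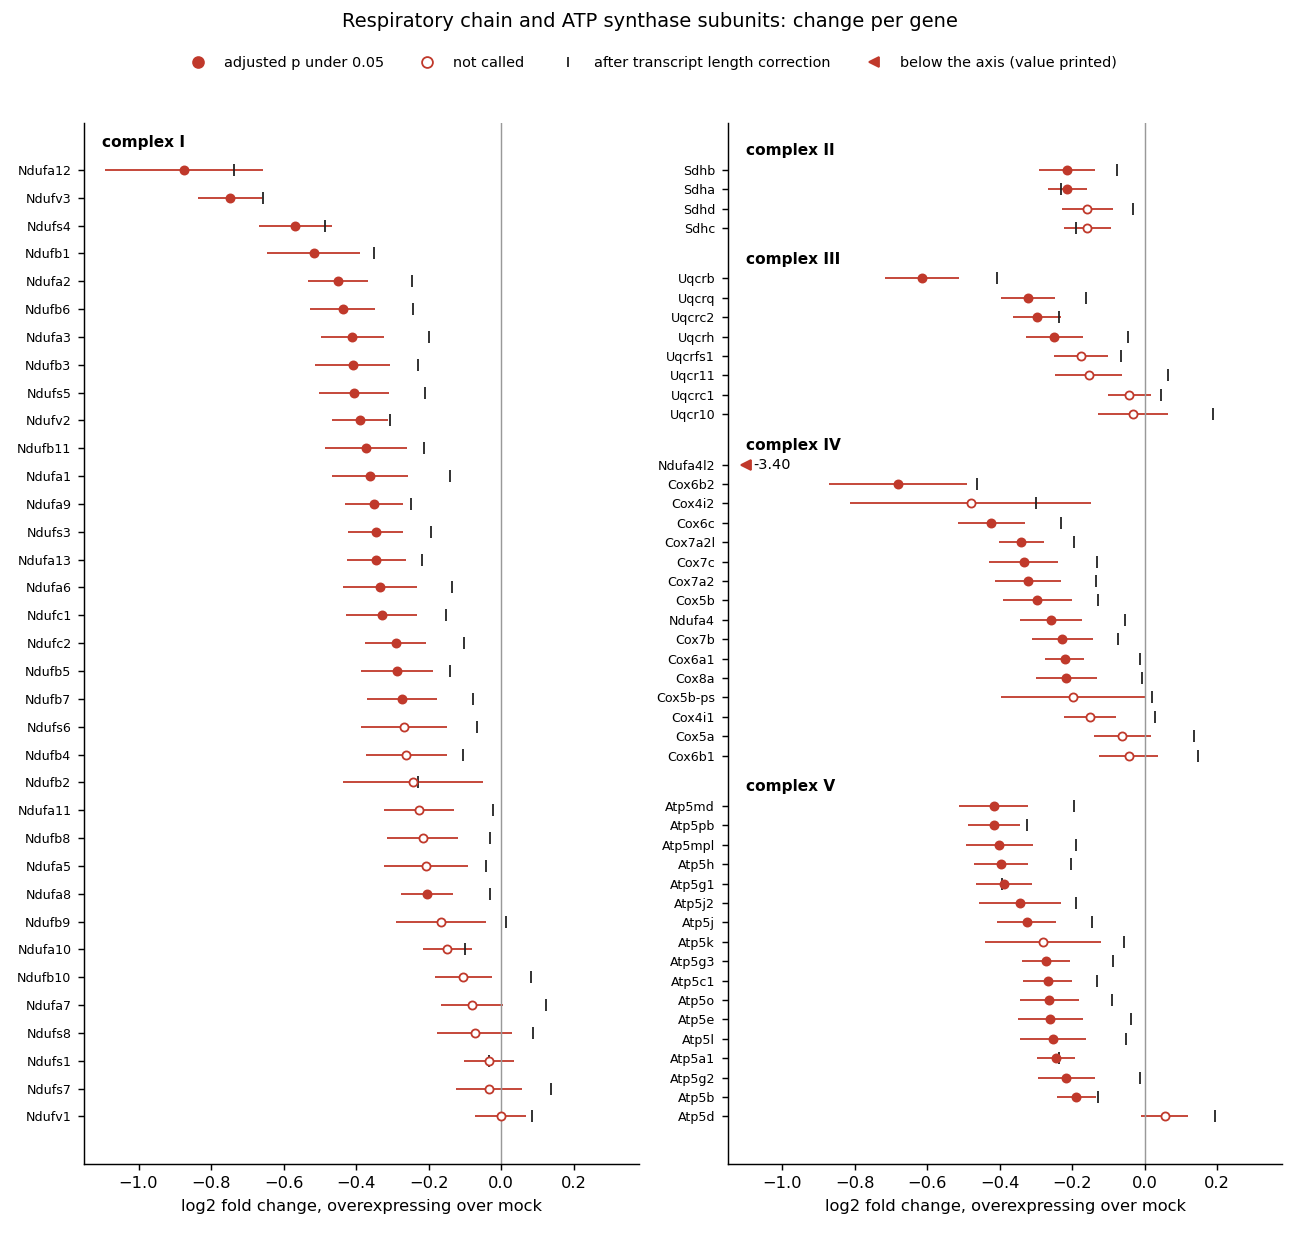
Log2 fold change of 80 of the 81 tested subunits between the libraries labelled overexpressing and those labelled mock (x axis), with bars of 1 standard error, grouped by complex. Filled points have an edgeR adjusted p under 0.05, and black ticks give the value after correction for transcript length; the ATP synthase's Atp5d is the single subunit above 0 before that correction, and Ndufa4l2 lies far below the rest at -3.4.

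Short genes as a whole shifted in the same direction. Among all tested genes with a transcript length, the tenth with the shortest spliced transcripts (at most 995 bases) had a median log2 fold change of -0.21, and the tenth with the longest (at least 6177 bases) one of 0.19. Of the 81 subunits, 53 fell in the shortest length group, and 35 of these were lower. Outside the subunits 29.6% of genes in that length group were lower. Counts also set how many genes can pass the test, and the subunits are well expressed, with a median of 45.6 CPM against 19.0 CPM for all tested genes. Among genes of the shortest length group with a mean of at least 10 CPM, 33 of 49 subunits were lower with a median of -0.27, while 57.1% of the other 517 genes were lower with a median of -0.30. Of those 49 subunits, 20 lay below the median of the other genes, and Uqcrb and Ndufb1 lay below their lower quartile of -0.47. The median fall of these 49 subunit messages was thus no larger than that of other short, expressed genes. In the next length group (998 to 1513 bases) 9 of 12 subunits were lower, with a median of -0.28. Other genes there had 27.4% lower and a median of -0.11. From 1513 to 1933 bases 7 of 9 subunits were lower, with a median of -0.30, against 26.9% and -0.08 for other genes. These 2 groups were not matched for level, and longer groups held at most 4 subunits each.

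**Figure D2:**
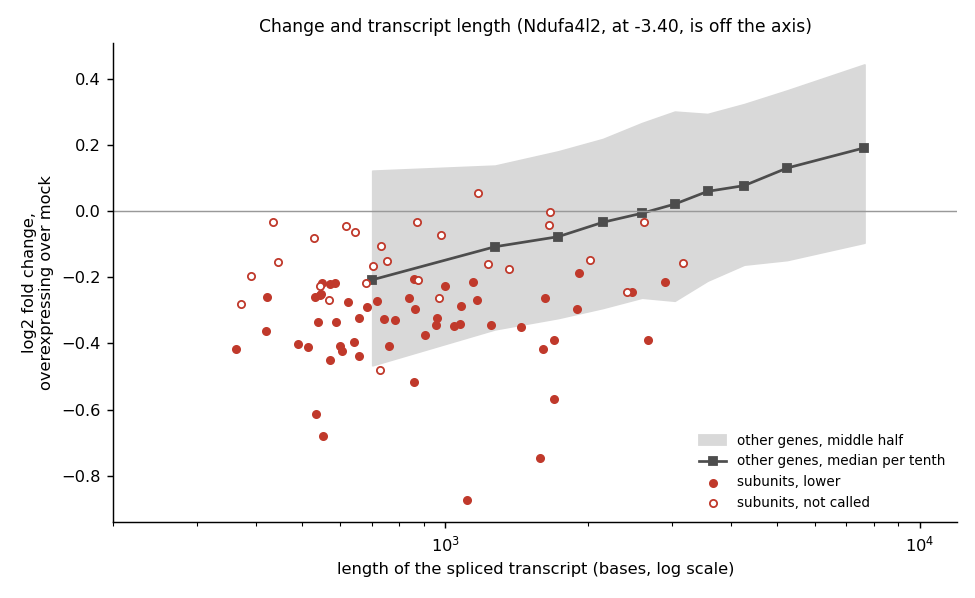
Log2 fold change (y axis) against the length of the spliced transcript in bases (x axis, log scale) for the tested subunits (points) and the median and interquartile range of the other tested genes in 10 equal-sized length groups (line and band). Median values of the other genes run from -0.21 in the shortest group to 0.19 in the longest, and most subunits lie at the short end, near or below the line.

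After the trend with transcript length was removed in each library, 26 subunits were lower and 1, Atp5d, was higher, the median being -0.13 and 67 of 81 values below 0. In that fit 23.5% of all genes were lower and 20.4% higher. The correction used the length of the principal transcript and was chosen after seeing the data. The gene length in the deposited table, planned for this purpose, covers all annotated exons and overstates the message for several subunits. It gives Atp5l 6443 bases, where the principal transcript has 544. With that length 37 subunits were lower and 0 higher, against 23.4% of all genes lower. By complex, the transcript length correction left 13 lower in complex I, 2 in complex II, 2 in complex III, 3 in complex IV and 6 in the ATP synthase. Of the 26, 24 were also lower in each of the 6 uncorrected fits that leave out 1 library. They include Ndufv3, Ndufs4, Sdha, Uqcrb, Uqcrc2, Cox6c, Cox7a2l, Ndufa4l2, Atp5a1, Atp5b, Atp5g1 and Atp5pb.

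The libraries labelled overexpressing did not shift equally. Relative to the mock mean, the median subunit stood at -0.39, -0.12 and -0.33 (log2 of CPM plus 0.5) in replicates 1, 2 and 3 labelled overexpressing, and at -0.03, 0.00 and 0.03 in the mock replicates. Other genes of the shortest length group moved in the same order, at -0.26, -0.06 and -0.21 in the libraries labelled overexpressing and at -0.02, -0.02 and 0.04 in those labelled mock. Replicate 2 labelled overexpressing had the highest level of its group for 67 of the 81 subunits. Without that library 67 subunits were lower, without replicate 1 labelled overexpressing 37, and without replicate 3 labelled overexpressing 41. The part of length or of RNA quality in this spread was not tested.

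**Figure D3:**
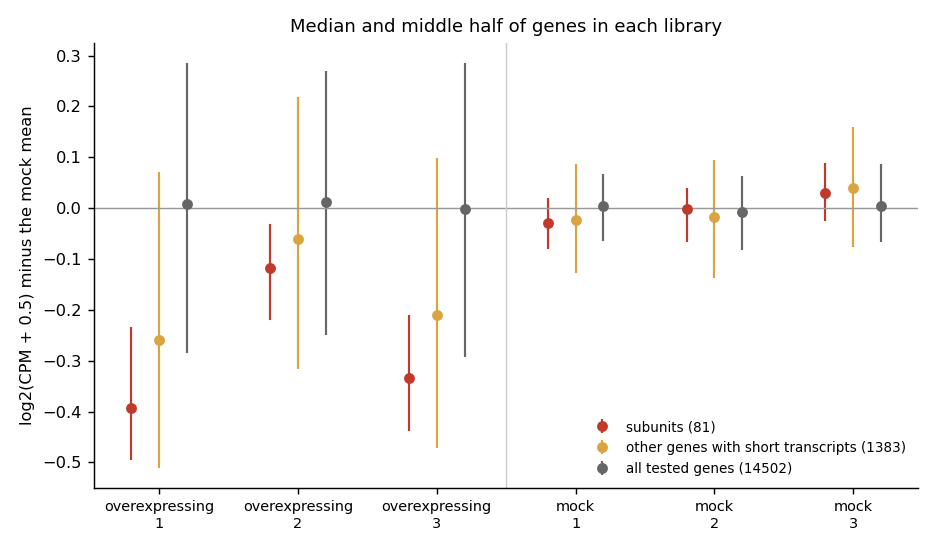
Median (point) and interquartile range (bar) of log2(CPM + 0.5) minus the mean of the mock libraries (y axis) in each library (x axis), for the 81 tested subunits, for the other genes in the shortest length group, and for all tested genes. Subunits and other short genes sit lowest in replicates 1 and 3 labelled overexpressing and near 0 in the mock libraries, while the median of all genes stays near 0 in each library.

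Complex I takes electrons from NADH in its matrix arm. Of its 29 tested accessory subunits 19 were lower, with a median of -0.33, and of its 7 nuclear core subunits 3 were, with a median of -0.07. That difference was not tested. The accessory subunits also have shorter transcripts, with a median of 763 bases against 1623 for the core. Of 10 subunits assigned here to the NADH-binding module, 6 were lower, and of 5 assigned to the ubiquinone-binding module, 2 were. Over all genes tested 23.0% were lower. After the transcript length correction 10 of the 29 accessory and 3 of the 7 core subunits were lower, with medians of -0.14 and -0.03. In that fit 5 were lower in the NADH-binding and 2 in the ubiquinone-binding module, against 23.5% of all genes.

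Ndufv3, an accessory subunit of the NADH-binding module (chromosome 17, 31739089 to 31750305, mm39), had 20.7, 22.2 and 19.1 CPM in the libraries labelled overexpressing, against 32.8, 34.7 and 36.7 CPM in those labelled mock. The groups stood well apart, and the log2 fold change was -0.75 (SE 0.09, edgeR adjusted p = 3.97e-07). It was -0.66 after the transcript length correction. Ndufs4, an accessory subunit whose loss causes a Leigh-like disease in mice (chromosome 13, 114424331 to 114524794, mm39), had 22.3, 27.4 and 20.3 CPM in the libraries labelled overexpressing, against 34.2, 32.6 and 37.1 CPM in those labelled mock. Each library labelled overexpressing lay below each mock library, at a log2 difference of -0.57 (SE 0.10, edgeR adjusted p = 7.39e-05). Ndufa2, a small accessory subunit on chromosome 18, averaged 29.6 ± 1.7 CPM in the libraries labelled overexpressing and 40.5 ± 3.0 CPM in those labelled mock (SD, n = 3 each), and its adjusted p was 1.30e-04 in edgeR.

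The catalytic core of the same arm did not move together. Ndufv1, which carries the flavin that accepts electrons from NADH, had 55.2, 51.8 and 58.1 CPM in the libraries labelled overexpressing, against 53.2, 57.2 and 54.9 CPM in those labelled mock. The groups overlapped, with a log2 difference of 0.00 (SE 0.07, edgeR adjusted p = 0.993). Ndufs1, which holds several of the iron-sulfur clusters, had 70.8, 65.3 and 69.4 CPM in the libraries labelled overexpressing and 72.0, 73.5 and 64.8 CPM in those labelled mock, again overlapping. Ndufv2, which carries a further cluster of the module, was lower at -0.39 (SE 0.08, edgeR adjusted p = 3.01e-04).

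Ndufa12 had a value of -0.87 (SE 0.22, edgeR adjusted p = 0.00229), and the call rests on 1 mock library. It had 139, 151 and 113 counts in the libraries labelled overexpressing, against 368, 152 and 198 in those labelled mock. Without mock replicate 1 the value was -0.46 (SE 0.18, edgeR adjusted p = 0.0512). A processed copy on chromosome 5, Ndufa12-ps, shows the opposite in that library, with 148 counts against 282 and 244 in the other mock libraries and 223, 266 and 210 in those labelled overexpressing. In the reference transcripts (GENCODE M21, GRCm38) the 402 bases of the copy match the coding sequence of Ndufa12 at 400, and the longest identical run is 278 bases. The stretches below, positions 37 to 186 of the 438-base coding sequence and positions 1 to 150 of the copy, are printed because they show how few bases separate the gene from its copy. Capitals mark the 1 base that differs.
Ndufa12: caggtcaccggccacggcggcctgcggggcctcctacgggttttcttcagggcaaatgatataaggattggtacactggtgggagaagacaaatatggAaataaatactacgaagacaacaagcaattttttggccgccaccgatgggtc
Ndufa12-ps: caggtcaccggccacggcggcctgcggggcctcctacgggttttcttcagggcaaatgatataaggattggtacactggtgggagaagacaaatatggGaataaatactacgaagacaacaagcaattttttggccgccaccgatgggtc
The sum of both rows was 19.3, 25.3 and 18 CPM in the libraries labelled overexpressing, against 29.3, 24.6 and 27.3 CPM in those labelled mock. The summed groups overlapped, with a log2 ratio of means of -0.38 and p = 0.200 in a two-sided exact permutation test, which cannot go below 0.10 with 3 libraries against 3. How the authors' counting assigned reads that match both is not stated in the sources, so the value of Ndufa12 is uncertain. Among 17 non-coding rows named as copies of these subunits, 11 had a count, and the next most counted was Ndufs5-ps, with 159 counts in the libraries labelled overexpressing and 183 in those labelled mock.

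**Figure D4:**
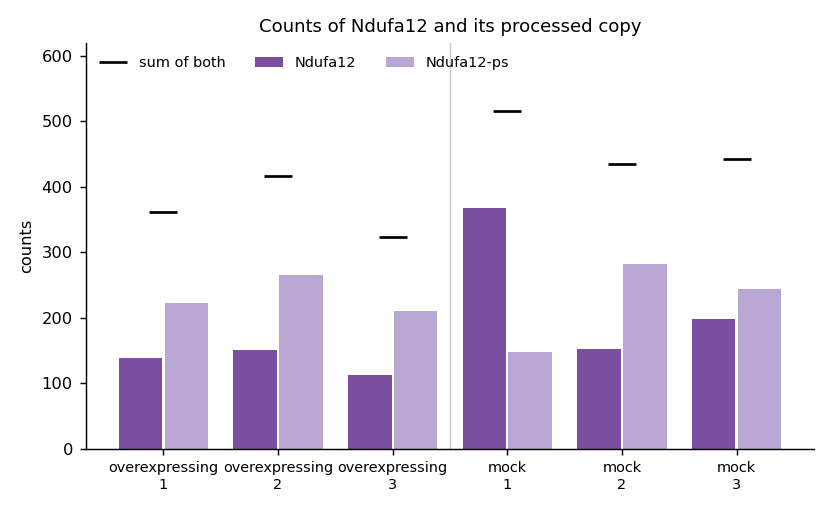
Counts (y axis) of Ndufa12 (dark bars), its processed copy Ndufa12-ps (light bars) and their sum (black lines) in each library (x axis). Mock replicate 1 has 368 counts on the gene and 148 on the copy, while in each of the other 5 libraries the copy has more counts than the gene.

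Complex II, succinate dehydrogenase, is shared with the citric acid cycle and is wholly nuclear-encoded. Sdha, its flavin subunit, had 165, 162 and 157 CPM in the libraries labelled overexpressing, against 184, 187 and 189 CPM in those labelled mock. The groups did not overlap, and the log2 fold change was -0.21 (SE 0.05, edgeR adjusted p = 0.00260). It was -0.23 after the transcript length correction, for a transcript of 2900 bases. Sdhb, the iron-sulfur subunit, had 51.2, 57.4 and 46.4 CPM in the libraries labelled overexpressing, against 60.4, 58.2 and 61.2 CPM in those labelled mock. Its value was -0.22 (SE 0.08, edgeR adjusted p = 0.0263), and after the transcript length correction -0.08 (edgeR adjusted p = 0.396). The membrane anchors Sdhc and Sdhd did not pass the test, both at -0.16 (edgeR adjusted p = 0.0548 for Sdhc and 0.0700 for Sdhd). After the transcript length correction Sdhc was lower, at -0.19 (edgeR adjusted p = 0.0172), and Sdhd was at -0.03 (edgeR adjusted p = 0.729).

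Complex III passes electrons from ubiquinol to cytochrome c. Uqcrb, a small subunit near its ubiquinone sites (chromosome 13, 67048681 to 67053442, mm39), had 19.9, 23.9 and 18 CPM in the libraries labelled overexpressing, against 29.5, 34.3 and 30.4 CPM in those labelled mock. The groups did not overlap, and the log2 fold change was -0.61 (SE 0.10, edgeR adjusted p = 3.64e-05), or -0.41 after the transcript length correction. Uqcrc2, a core protein facing the matrix, and Uqcrq, a small subunit, were lower at -0.30 (edgeR adjusted p = 8.14e-04) and -0.32 (edgeR adjusted p = 0.00123). Uqcrq was at -0.16 after the transcript length correction (edgeR adjusted p = 0.0615). The other core protein, Uqcrc1, had 105, 112 and 111 CPM in the libraries labelled overexpressing and 115, 108 and 114 CPM in those labelled mock, so the groups overlapped. Uqcrfs1, the Rieske iron-sulfur protein that carries electrons to cytochrome c1, was at -0.18 (edgeR adjusted p = 0.0607). Uqcrh, the hinge protein at cytochrome c1, was lower at -0.25 (edgeR adjusted p = 0.0127), and was at -0.05 after the transcript length correction (edgeR adjusted p = 0.618), while Uqcr10 was at -0.03 (edgeR adjusted p = 0.814).

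Complex IV reduces oxygen to water, and several of its nuclear subunits exist as paired isoforms. Ndufa4l2, a paralog of Ndufa4 that is induced by hypoxia (chromosome 10, 127350836 to 127353023, mm39), had 0.96, 0.85 and 1.0 CPM in the libraries labelled overexpressing, against 7.83, 8.62 and 13.5 CPM in those labelled mock. The groups were far apart, a 10.5-fold lower level with a log2 difference of -3.4 (SE 0.25, edgeR adjusted p = 1.82e-10). It was the largest change among the tested subunits and was -3.23 after the transcript length correction. Ndufa4, the common isoform, had 47.6, 62.8 and 50.9 CPM in the libraries labelled overexpressing, against 62.2, 61.8 and 68.7 CPM in those labelled mock. Its groups overlapped, with a value of -0.26 (SE 0.09, edgeR adjusted p = 0.0178), and -0.05 after the transcript length correction (edgeR adjusted p = 0.553).

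Cox4i2, the isoform known from lung and from low oxygen, was scarce, with 1.12, 1.64 and 1.11 CPM in the libraries labelled overexpressing and 1.93, 1.42 and 2.04 CPM in those labelled mock. Its groups overlapped, at -0.48 (SE 0.33, edgeR adjusted p = 0.251). Cox4i1, the common isoform, had 167, 218 and 198 CPM in the libraries labelled overexpressing and 205, 220 and 223 CPM in those labelled mock, at -0.15 (SE 0.07, edgeR adjusted p = 0.0970). Cox6b2, known from testis, was lower, with 3.72, 2.91 and 3.39 CPM in the libraries labelled overexpressing, against 5.05, 5.33 and 5.74 CPM in those labelled mock. Its value was -0.68 (SE 0.19, edgeR adjusted p = 0.00563), and -0.46 after the transcript length correction (edgeR adjusted p = 0.0620), while its common partner Cox6b1 was at -0.04 (edgeR adjusted p = 0.684).

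The heart and muscle isoforms Cox6a2, Cox7a1 and Cox8b were too low to be tested. Cox6a2 had 0.11 to 0.86 CPM and Cox7a1 0.22 to 1.11 CPM over all libraries. Cox8b had at most 4 counts in a library, near the detection floor of 0.163 to 0.191 CPM, the level of 3 counts. The common partners of these isoforms were called lower. Cox6a1 was at -0.22 (edgeR adjusted p = 0.00199), Cox7a2 at -0.32 (edgeR adjusted p = 0.00650) and Cox8a at -0.22 (edgeR adjusted p = 0.0383). After the transcript length correction Cox6a1 and Cox8a were both at -0.01 and Cox7a2 at -0.13, with edgeR adjusted p of 0.869, 0.932 and 0.161. Cox7a2l, the family member that joins complexes III and IV into supercomplexes, had 104, 115 and 103 CPM in the libraries labelled overexpressing, against 131, 133 and 143 CPM in those labelled mock. The groups did not overlap, and the value was -0.34 (SE 0.06, edgeR adjusted p = 1.04e-04), or -0.19 after the transcript length correction (edgeR adjusted p = 0.00548). Cox6c, a small membrane subunit, was lower at -0.42 (SE 0.09, edgeR adjusted p = 6.70e-04). Cox5b-ps, which the table lists as protein-coding although its symbol is that of a pseudogene, was at -0.20 (edgeR adjusted p = 0.448).

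**Figure D5:**
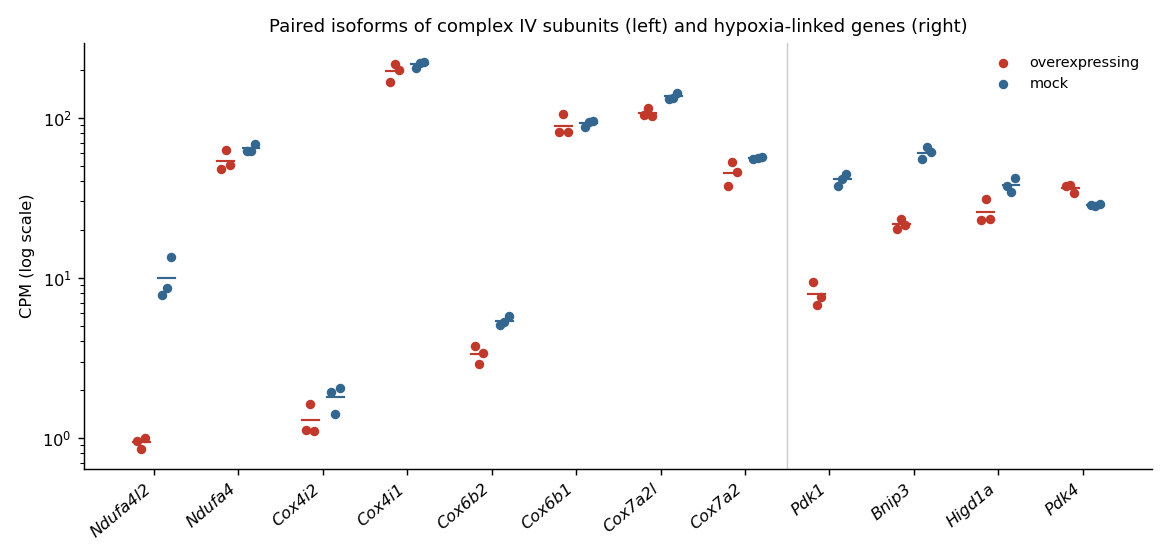
CPM (y axis, log scale) in each library labelled overexpressing (red, left of each pair) and mock (blue, right), with group means as lines, for paired isoforms of complex IV subunits and, right of the vertical line, 4 genes linked to hypoxia. Ndufa4l2, Pdk1 and Bnip3 are far lower in the libraries labelled overexpressing and Pdk4 is higher, while Ndufa4, Cox4i1 and Cox6b1 overlap between the groups.

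The ATP synthase turns proton flow into ATP through a membrane ring, a rotating central stalk and a catalytic head held by a peripheral stalk. Before length correction 4 of 5 were lower in the head and central stalk and 4 of 4 tested in the peripheral stalk. In the c ring 3 of 3 were lower, and 4 of 5 among the other membrane subunits. Over all genes tested 23.0% were lower, and 57.1% of the other genes in the shortest length group with at least 10 CPM. That group ends at 995 bases, and the transcripts of Atp5a1, Atp5b, Atp5c1, Atp5d, Atp5pb and Atp5g1 are longer. After the transcript length correction 2, 2, 1 and 1 were lower in these parts, in the same order. Atp5d, in the head and central stalk, was then higher. Atp5b, the catalytic beta subunit, had 836, 804 and 802 CPM in the libraries labelled overexpressing, against 929, 951 and 903 CPM in those labelled mock. The groups did not overlap, and the log2 fold change was -0.19 (SE 0.05, edgeR adjusted p = 0.00645). Atp5a1, the alpha subunit of the head, had 378, 370 and 356 CPM in the libraries labelled overexpressing, against 433, 445 and 431 CPM in those labelled mock, a value of -0.25 (SE 0.05, edgeR adjusted p = 6.36e-04).

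Atp5pb, subunit b of the peripheral stalk (chromosome 3, 105850014 to 105867415, mm39), had 128, 134 and 110 CPM in the libraries labelled overexpressing, against 154, 178 and 165 CPM in those labelled mock. The groups did not overlap, at -0.42 (SE 0.07, edgeR adjusted p = 4.58e-05), and -0.33 after the transcript length correction. Atp5h, subunit d of the same stalk, was lower at -0.40 (SE 0.07, edgeR adjusted p = 1.44e-04). Atp5g1, Atp5g2 and Atp5g3 encode the same mature c subunit, and all 3 were lower, at -0.39, -0.22 and -0.27, with edgeR adjusted p of 2.33e-04, 0.0273 and 0.00156. After the transcript length correction Atp5g1 stayed at -0.39, while Atp5g2 was at -0.01 and Atp5g3 at -0.09 (edgeR adjusted p = 0.904 for Atp5g2 and 0.198 for Atp5g3). The length used for Atp5g1, 2676 bases, is the median of its annotated principal transcripts.

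Atp5d, the delta subunit of the central stalk, was the tested subunit with a value above 0, though by less than its error. It had 126, 126 and 144 CPM in the libraries labelled overexpressing, against 124, 121 and 135 CPM in those labelled mock. The groups overlapped, at 0.06 (SE 0.06, edgeR adjusted p = 0.512), and after the transcript length correction the value was 0.19 (edgeR adjusted p = 0.0170). Atpif1, which blocks the enzyme when it runs in reverse and is outside the 88 genes, was lower at -0.51 (edgeR adjusted p = 4.40e-04).

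Levels between subunits were compared per kilobase of transcript. Atp5b was the most abundant subunit message of the ATP synthase, at 425 ± 10.1 CPM per kb in the libraries labelled overexpressing and 484 ± 12.6 CPM per kb in those labelled mock (SD, n = 3 each). Next was Atp5g3, at 165 CPM per kb in the libraries labelled overexpressing and 199 in those labelled mock. Atp5a1 followed, at 149 CPM per kb in the libraries labelled overexpressing and 177 in those labelled mock. Cox6a1 led complex IV, at 319 ± 7.6 CPM per kb in the libraries labelled overexpressing and 372 ± 9.5 CPM per kb in those labelled mock, ahead of Cox4i1 at 258 and 286 CPM per kb in libraries labelled overexpressing and mock. In libraries so labelled, Uqcrh led complex III at 96.1 (overexpressing) and 114 (mock) CPM per kb. Ndufa7 led complex I at 106 (overexpressing) and 112 (mock), and Sdha led complex II at 55.5 (overexpressing) and 64.4 (mock). Per kb of the table's gene length the leaders in both groups were Atp5b, Cox6a1, Uqcr10 and Sdhd, while in complex I Ndufa8 led in the libraries labelled overexpressing and Ndufa2 in those labelled mock. Ndufa7, a subunit of the NADH-binding module, was at -0.08 between the groups (edgeR adjusted p = 0.473).

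Promoter windows were examined for short motifs of factors known to act on respiratory genes. RefSeq windows (GRCm38.p6, 250 bases before to 50 after the start) were found for 69 of the subunits by symbol and not for 18, among them Ndufa4l2, Uqcrb and Cox6c. The motifs, searched on both strands, were GCGCATGC for NRF1, CCGGAAG for the ETS family including GABP, CAAGGTCA for estrogen-related receptors (ERR) and AAGATGGCG for YY1. The NRF1 letters are nearly their own reverse complement, so matches on both strands can overlap. Shares of subunits and of tested genes count a gene with a match in any of its windows, while shares of all windows count single windows. NRF1 letters were in 14.5% of subunits, against 6.03% of tested protein-coding genes and 2.71% of all windows in the table. ETS letters were in 24.6% of subunits, 19.8% of tested genes and 8.86% of all windows. For ERR the shares were 5.80%, 1.26% and 1.56%, and for YY1 10.1%, 3.55% and 1.40%.

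The share with a motif was similar among called and uncalled subunits. Of 45 lower subunits with a window, 21 held at least 1 of the motifs, and of 21 tested subunits not called, 9 did, shares of 46.7% and 42.9%, with no test. The windows below are those of the lower subunit with the smallest p for each motif, Cox6a1 for NRF1, Atp5h for ETS, Ndufs5 for ERR and Ndufs4 for YY1. Capitals mark the motif letters on either strand, and a match is a description of these letters, not a bound site.
Cox6a1, chr5:115348909-115349208, minus strand: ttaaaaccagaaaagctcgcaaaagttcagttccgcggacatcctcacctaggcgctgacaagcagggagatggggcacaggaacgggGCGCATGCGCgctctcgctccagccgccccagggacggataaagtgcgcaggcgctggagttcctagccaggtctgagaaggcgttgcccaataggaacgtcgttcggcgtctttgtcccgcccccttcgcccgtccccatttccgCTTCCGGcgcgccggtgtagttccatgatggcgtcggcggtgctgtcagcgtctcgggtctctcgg
Atp5h, chr11:115419870-115420169, minus strand: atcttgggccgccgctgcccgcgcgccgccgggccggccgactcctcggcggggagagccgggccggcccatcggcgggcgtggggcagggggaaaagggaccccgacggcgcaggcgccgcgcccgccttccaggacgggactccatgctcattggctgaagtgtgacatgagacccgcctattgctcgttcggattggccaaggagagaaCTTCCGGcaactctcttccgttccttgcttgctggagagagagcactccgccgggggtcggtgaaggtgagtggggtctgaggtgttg
Ndufs5, chr4:123718137-123718436, minus strand: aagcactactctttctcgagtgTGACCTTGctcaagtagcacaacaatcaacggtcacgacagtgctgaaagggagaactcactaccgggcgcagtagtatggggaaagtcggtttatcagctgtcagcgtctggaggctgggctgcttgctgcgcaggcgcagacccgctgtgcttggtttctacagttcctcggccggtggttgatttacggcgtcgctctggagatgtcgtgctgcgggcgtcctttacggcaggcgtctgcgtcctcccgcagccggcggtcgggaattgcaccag
Ndufs4, chr13:114388045-114388344, minus strand: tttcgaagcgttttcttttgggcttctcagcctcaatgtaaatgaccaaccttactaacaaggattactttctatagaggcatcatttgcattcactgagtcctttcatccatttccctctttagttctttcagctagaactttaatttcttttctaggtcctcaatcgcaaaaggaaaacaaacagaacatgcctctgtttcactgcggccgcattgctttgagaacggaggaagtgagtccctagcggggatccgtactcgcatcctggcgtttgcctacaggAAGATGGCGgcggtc
The Cox6a1 window holds overlapping NRF1 letters from position -162 and ETS letters from position -16, counted from the transcription start. The motif begins at -38 in Atp5h, at -228 in Ndufs5 and at 36 in Ndufs4. None of the 4 motifs was in the windows of Ndufv3 and Atp5d.

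Genes for these factors and their partners were examined as a list. Of 8 tested regulators 1 was lower and 1 higher. Gabpb1, the activating partner of GABP, averaged 23.3 ± 0.8 CPM in the libraries labelled overexpressing and 28.4 ± 3.5 CPM in those labelled mock (SD, n = 3 each; edgeR adjusted p = 0.0161). Ppargc1b, a coactivator of respiratory genes, had 46 counts in all in the libraries labelled overexpressing and 4 in those labelled mock, a ratio of 12.0 per library total (95% counting interval 4.38 to 45.9), and was higher in edgeR (adjusted p = 3.83e-04). Ppargc1a, its better known relative, had 6 counts in all in the libraries labelled overexpressing and 3 in those labelled mock, and was not tested. Nrf1 averaged 16.8 ± 1.1 CPM in the libraries labelled overexpressing and 17.6 ± 0.9 CPM in those labelled mock, with a log2 fold change of -0.06 (edgeR adjusted p = 0.652). Esrra was at 0.19 (edgeR adjusted p = 0.0646), Yy1 at 0.08 (0.313) and Gabpa at 0.06 (0.472).

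Of 12 tested subunits encoded in mitochondrial DNA, 4 were lower and 0 higher, the median being -0.10. Over all genes tested 23.0% were lower and 22.3% higher. The catalytic subunit mt-Co1 of complex IV had 6668, 6756 and 7963 CPM in the libraries labelled overexpressing, against 8743, 8596 and 7949 CPM in those labelled mock, so replicate 3 labelled overexpressing overlapped the mock libraries. Its log2 fold change was -0.24 (edgeR adjusted p = 0.00694). Cytochrome b of complex III, mt-Cytb, did not overlap, at -0.29 (edgeR adjusted p = 1.47e-04). The complex I subunits mt-Nd1 and mt-Nd2 were at -0.30 and -0.17 (edgeR adjusted p of 0.00257 and 0.0194). After the transcript length correction the median of the 12 was 0.02, with 6 values below 0. In that fit mt-Cytb was lower, at -0.15, and mt-Atp6 higher, at 0.38 (edgeR adjusted p of 0.0191 and 0.0358). mt-Atp6, mt-Co2, mt-Co3, mt-Nd3 and mt-Nd4l had far fewer counts than the others, and nuclear copies of mitochondrial DNA can share their reads, so their values are uncertain.

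Counts in the lists of other mitochondrial genes are to be read against the 23.0% lower and 22.3% higher over all genes tested. Of 17 tested complex I factors 3 were lower and 1, Acad9, was higher at 0.33 (edgeR adjusted p = 0.00304), while Tmem126a was lower at -0.49 (edgeR adjusted p = 1.27e-04). Of 23 tested complex IV factors 5 were lower and 3 higher. Coa3 was lower at -0.42 (edgeR adjusted p = 5.52e-04) and Cox16 at -0.86 (edgeR adjusted p = 0.00290), whereas Cox10, which makes heme o, was higher at 0.44 (edgeR adjusted p = 0.00496). Of 10 factors of complexes II and III, 4 were lower and 0 higher. Ttc19, which acts in the turnover of Rieske protein fragments, had 32.1, 35.6 and 34.5 CPM in the libraries labelled overexpressing, against 54.0, 55.1 and 55.4 CPM in those labelled mock. The groups were well apart, at -0.69 (SE 0.07, edgeR adjusted p = 1.04e-07). Of 6 ATP synthase factors 1 was lower and 0 higher: Tmem70, which helps assemble the c ring, was at -0.60 (SE 0.07, edgeR adjusted p = 4.13e-07).

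Carriers and feeder enzymes were also examined. Of 18 genes for electron carriers and ubiquinone synthesis, 5 were lower and 1 higher. Cytochrome c, Cycs, had 56.5, 62.6 and 54.8 CPM in the libraries labelled overexpressing, against 73.9, 86.0 and 72.4 CPM in those labelled mock, at -0.42 (edgeR adjusted p = 9.56e-05). Etfb, a subunit of the electron transfer flavoprotein, was lower at -0.73 (edgeR adjusted p = 1.33e-04). Of 16 genes of the citric acid cycle and pyruvate dehydrogenase, 6 were lower and 1 higher: Suclg2, of succinyl-CoA synthetase, was at -0.49 (edgeR adjusted p = 2.20e-05), and Ogdh, of the oxoglutarate dehydrogenase complex, at 0.26 (edgeR adjusted p = 0.00217). Of 13 genes for mitochondrial DNA upkeep and transcription 2 were lower and 2 higher. The mitochondrial RNA polymerase gene Polrmt was higher at 0.46 (edgeR adjusted p = 1.31e-04), and Tfam, which packages mitochondrial DNA, was lower at -0.27 (edgeR adjusted p = 0.0251).

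Ndufa4l2 also belonged to a list of 8 genes by which cells change respiration under hypoxia, of which 6 were lower and 1 higher. Pdk1, the kinase that shuts off pyruvate dehydrogenase, had 9.41, 6.74 and 7.62 CPM in the libraries labelled overexpressing, against 37.4, 41.6 and 44.7 CPM in those labelled mock. The groups were far apart, at -2.37 (SE 0.11, edgeR adjusted p = 9.09e-14). Bnip3, which marks mitochondria for removal, had 20.3, 23.1 and 21.2 CPM in the libraries labelled overexpressing, against 55.2, 65.5 and 61.1 CPM in those labelled mock, at -1.49 (SE 0.09, edgeR adjusted p = 2.26e-12). Higd1a, a hypoxia-induced protein of complex IV, was lower at -0.57 (edgeR adjusted p = 1.42e-04). Pdk4, another kinase of the same family, was higher, with 37.7, 37.8 and 34.1 CPM in the libraries labelled overexpressing and 28.5, 28.0 and 28.8 CPM in those labelled mock (log2 fold change 0.36, edgeR adjusted p = 9.23e-04). These lists hold 133 genes outside the 88 subunits, of which 128 were tested, 35 were lower and 10 higher, the median being -0.10. That is 27.3% lower, near the 23.0% of all genes tested. The 10 higher genes of 128, however, are a far smaller share than the 22.3% that rose among all genes tested. Of the 128 values, 91 were below 0, so these genes leaned to the lower side before length correction. After the transcript length correction 72 values were below 0, with a median of -0.04. In that fit 27 of these genes were lower and 11 higher, against 23.5% lower and 20.4% higher among all genes.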

How the data were processed

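The authors deposited whole-number read counts per gene for 6 mouse ADSC libraries (3 labelled overexpressing, 3 labelled mock). Per the submitters' processing notes, the tools were featureCounts 1.5.0-p3, StringTie 1.3.3b, HISAT2 2.0.5 and fastp, on build mm39, in roles those notes do not state. They also deposited FPKM values and log2 fold changes with p-values of their own comparison. The authors' deposited table lists 84 subunits with a fold change, and 52 of them are lower and 0 higher at an adjusted p under 0.05. The FPKM, deposited by the authors, were not used for any result, and the group mean signal the authors deposited was not used either.

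Counts were tested with the edgeR quasi-likelihood test (version 4.0.16, R version 4.3.3) after TMM scaling and filterByExpr with a minimum count of 10, with no replicate block. Benjamini-Hochberg adjustment ran over 14502 genes; calls needed an adjusted p under 0.05 at any fold. Fold changes are the libraries labelled overexpressing over those labelled mock, and an SE is the log2 fold change over the square root of F. The length corrections used a lowess trend (span 0.3) of each library's log2 deviation on log2 length as an offset. Spliced lengths of APPRIS principal transcripts came from GENCODE M21, matched by gene ID. The main fit and the gene length correction were run on simulated data, while the transcript length correction and the other settings were not. Library pairs within a group differed by more than counting noise (the lowest chi-square was 3.55 times its degrees of freedom), and each library was treated as 1 replicate. That spread does not tell separate cultures from technical repeats. A count of 3 in a library is 0.163 to 0.191 CPM, and intervals (95%, exact) and floors cover counting error only.

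Members and gene lists were chosen with earlier results of these data known. Per complex, the naming rule took up to 3 higher and 3 lower subunits with the smallest p and the member highest per kb. It also took isoform pairs with a count, 8 core subunits, and up to 4 called genes of each other list with the smallest p. Some genes that it took from the other lists, such as Foxred1, Ndufaf3 and Sdhaf2, are not described above. Ndufa12 and its copy, Ndufa8, Ndufb1, Ndufs5, Ndufv2, Sdhc, Uqcrc1, Cox5b-ps, Atp5d, Atp5l, Atpif1, Cox10, Pdk4, Esrra, Gabpa, Nrf1, Yy1, Ppargc1a and the low mitochondrially encoded genes fall outside that rule and were chosen after their values were seen. The promoter motifs were chosen by hand. For 1 subunit of complex I, single values are not reported here, while counts and medians over subunits include it. Alternatives were RLE factors, library size alone, no filter, DESeq2, the replicate block, both length corrections and leaving out each library.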

Additional observations from a re-analysis of the deposited data

How the results depend on the processing

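None of the 67 named genes changed direction past the threshold under the 14 alternatives. RLE factors, no filter and DESeq2 gave 54, 57 and 51 lower subunits and 0 higher. Scaled by library size alone, the median of all genes moved to 0.12, and 27 subunits were lower and 1 (Atp5d) higher with a median of -0.16, which is -0.27 relative to all genes, as with TMM. By complex that setting gave 13 lower in complex I, 0 in complex II, 4 in complex IV, and 7 lower and 1 higher in the ATP synthase, with 19 lower and 18 higher among the other pathway genes. Across all genes it gave 2385 lower and 4598 higher, against 3339 lower and 3233 higher. The gene length correction left 1 lower in complex II and 5 in complex IV.

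The transcript length correction, added after seeing the data, gave 26 lower and 1 higher, a median of -0.13, and 13 lower in complex I, 2 in complex III, 3 in complex IV, and 6 lower and 1 higher in the ATP synthase. Leaving out 1 library gave 37 to 67 lower subunits, 1 to 4 in complex II, 6 to 13 in complex IV, 17 to 29 in complex I, 3 to 5 in complex III and 10 to 16 in the ATP synthase, with medians of -0.37 to -0.22. Without replicates 1, 2 and 3 labelled overexpressing the counts were 37, 67 and 41.

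No pairing by replicate number was seen: same-numbered deviations correlated at 0.01, 0.02 and 0.00, and not every library correlated best with its own number. With 3 libraries a group this cannot show that the numbers mark no shared culture. With the replicate block 57 subunits were lower and 0 higher. With the replicate block and gene length correction 38 were lower and 1, in the ATP synthase, higher, with 1 lower in complex II and 5 in complex IV.

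Of 67 named tested genes, 47 kept their call and direction under library size alone, 50 under the transcript length correction and 53 under the gene length correction. The cause of these moves was not tested. Small differences of single low genes such as Cox4i2 were not detectable at this depth, and 3 libraries a group leave the spread loosely known.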
